A study of Mus musculus with 18 samples.

Results

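The miR-290~295 plasmid was compared with the empty plasmid in mouse embryonic fibroblasts (MEF) that lack the miR-17~92 cluster. Of the 1265 mature miRNAs listed for these libraries, 840 averaged 10 normalized counts or more across the 6 libraries; these 840 make up the comparison. They come from 6 of the 18 libraries of a small RNA sequencing study of miR-17~92 in MEF and splenic B cells. All 6 libraries are from d/d MEF, in which miR-17~92 is deleted, and the labels give Eu-myc mice as the strain. The 3 control libraries (E1, E2 and E3) carry an empty plasmid, called Empty, and the 3 treated libraries (miR-290 libraries 1, 2 and 3) carry overexpressed miR-290~295. Both groups therefore share the deletion, and neither has an intact miR-17~92. Nothing in the labels says whether the 3 replicates of a group were separate cultures, so p-values measure only the spread between these libraries, which may be technical. The sources used here do not give the promoter or dose of the plasmid or the number of clones, and the labels speak of cell lines under standard conditions. At the minimum, miR-7689-3p (10.03) and miR-7042-5p (10.1) lay just inside and miR-496a-5p (9.85) and miR-6995-5p (9.82) just outside, as means over the 6 libraries.

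A polycistronic miRNA is cut from a primary transcript that holds several hairpins, whereas a monocistronic miRNA is the only hairpin of its transcript. The nuclear Microprocessor (Drosha with Dgcr8) frees each hairpin, Dicer cuts the loop off, and 1 arm of the duplex, 5p or 3p, is usually kept in an Argonaute protein. Bases 2 to 8 of the mature miRNA, the seed, pair with target mRNAs. The miR-290~295 cluster is the main miRNA cluster of mouse embryonic stem cells and is silent in most differentiated cells. Several of its 3p arms hold the letters AAGUGC in the seed, which they share, shifted by 1 base, with miR-17 and miR-20a of miR-17~92 and with miR-93 and miR-106b of its relative miR-106b~25. The comparison here reads how the other miRNAs differed when this polycistron was overexpressed in cells without miR-17~92. The labels do not state the aim of the experiment.

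The 7 hairpins of the cluster lie in 1 intergenic stretch at chr7:3218626-3220841 on the + strand of GRCm38. The mature sequences below show which products share a seed. They are written 5′ to 3′ as RefSeq gives them for GRCm38.p6, with the seed in capitals, first the 5p arms and then the 3p arms. miR-292a-3p was measured as well and is named only.
miR-290a-5p: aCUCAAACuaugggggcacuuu
miR-292a-5p: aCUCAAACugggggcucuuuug
miR-293-5p: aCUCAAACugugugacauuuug
miR-291a-5p: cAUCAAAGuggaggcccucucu
miR-291b-5p: gAUCAAAGuggaggcccucucc
miR-294-5p: aCUCAAAAuggaggcccuaucu
miR-295-5p: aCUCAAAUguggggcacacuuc
miR-291a-3p: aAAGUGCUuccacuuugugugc
miR-294-3p: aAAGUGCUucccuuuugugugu
miR-295-3p: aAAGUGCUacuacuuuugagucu
miR-290a-3p: aAAGUGCCgccuaguuuuaagccc
miR-291b-3p: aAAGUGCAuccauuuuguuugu
miR-293-3p: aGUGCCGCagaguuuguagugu
The 5p arms of miR-290a, miR-292a and miR-293 share the seed CUCAAAC, and those of miR-291a and miR-291b share AUCAAAG. The 3p arms of miR-291a, miR-294 and miR-295 share AAGUGCU, while miR-290a-3p (AAGUGCC) and miR-291b-3p (AAGUGCA) differ from them in the last seed base. The seed of miR-293-3p is GUGCCGC.

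Reads on listed miRNAs ran from 43164128 to 58911475 per library, with no separation of the groups by depth. The first principal component of the kept miRNAs held 81.2% of the variance and separated the 3 miR-290 libraries from the 3 Empty libraries. In the main table each library is scaled to its typical miRNA. A second table of the same reads is scaled to RNA spike-ins, and on that scale the sum over all listed miRNAs was 56560666 to 63607151 in Empty and 37580941 to 45610034 with miR-290~295, without overlap. The median log2 difference of all 840 miRNAs was 0.02 in the main table and −0.45 on the spike-in scale, so differences below are relative to the typical miRNA, and the spike-in value is given where it turns a direction. In bulk RNA, fewer cells that make a miRNA and less of it per cell cannot be told apart.

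All 14 mature products of miR-290~295 that the table lists rose in the miR-290 libraries, where 16.7% of all 840 miRNAs rose and 22.3% fell. Their sum was 2065, 1580 and 1843 normalized counts in E1, E2 and E3 and 836559.7, 769474 and 902627 in miR-290 libraries 1, 2 and 3. The 2 groups were far apart, with means of 1829 ± 243 and 836220.2 ± 66577 (SD, n = 3 each), a 459-fold difference (log2 8.84). An exact permutation test of 3 libraries against 3 cannot go below p = 0.1, so this sum was not tested. With miR-290~295 the cluster made up 1.64 to 1.89% of all normalized counts.

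miR-292a-5p carried most of it. It had 1939, 1503 and 1751 normalized counts in the Empty libraries and 800449.9, 723160.3 and 864838 in the miR-290 libraries (log2 difference 8.85 ± 0.14, adjusted p = 2.3e-10, limma with Benjamini-Hochberg adjustment, as for every adjusted p below). It was 95.2% of the cluster with miR-290~295 and ranked 14 among all miRNAs there, against 242 in Empty. The next members were miR-292a-3p (10957 ± 2096), miR-293-5p (8398 ± 1627), miR-293-3p (5037 ± 829.6) and miR-294-3p (4859.9 ± 905, SD, n = 3). miR-291a-5p reached 2614, 4351 and 2842, miR-291a-3p 2392, 2698 and 1530.1 and miR-295-3p 2105, 2499 and 1555. Without miR-292a-5p, the cluster still went from 98.4 to 40071 normalized counts.

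Low counts of the cluster were present in every Empty library. As a percentage of the level with miR-290~295, the Empty level was 0.217% for miR-292a-5p, 0.107% for miR-291b-5p, the lowest, and 0.670% for miR-295-5p, the highest of the 11 products with reads in Empty. miR-290a-3p, miR-291b-3p and miR-294-5p had 0 reads in all 3 Empty libraries. Against a floor of 3 reads per library they were at least 11.3-fold, 24.5-fold and 16.97-fold higher with miR-290~295, where they had 30.7, 40.2 and 30.5, 82.7, 55.7 and 81.1 and 53.01, 57.7 and 40.98 normalized counts. Such floors cover counting error only. The source of the Empty counts was not tested.

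The arm that was kept differed from hairpin to hairpin in the miR-290 libraries. The 5p arm made up 98.6 ± 0.384% of miR-292a, 96.9 ± 0.367% of miR-290a and 96.01 ± 0.751% of miR-291b (SD, n = 3). The arms of miR-291a (59.7 ± 6.64% 5p) and miR-293 (62.3 ± 5.84%) were closer to each other. The 3p arm led in miR-294 and miR-295, whose 5p arms were 1.04 ± 0.120% and 14.2 ± 1.95%. Ligation in small RNA libraries depends on the ends of each RNA, so levels of different miRNAs are compared only as read counts.

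**Figure D1:**
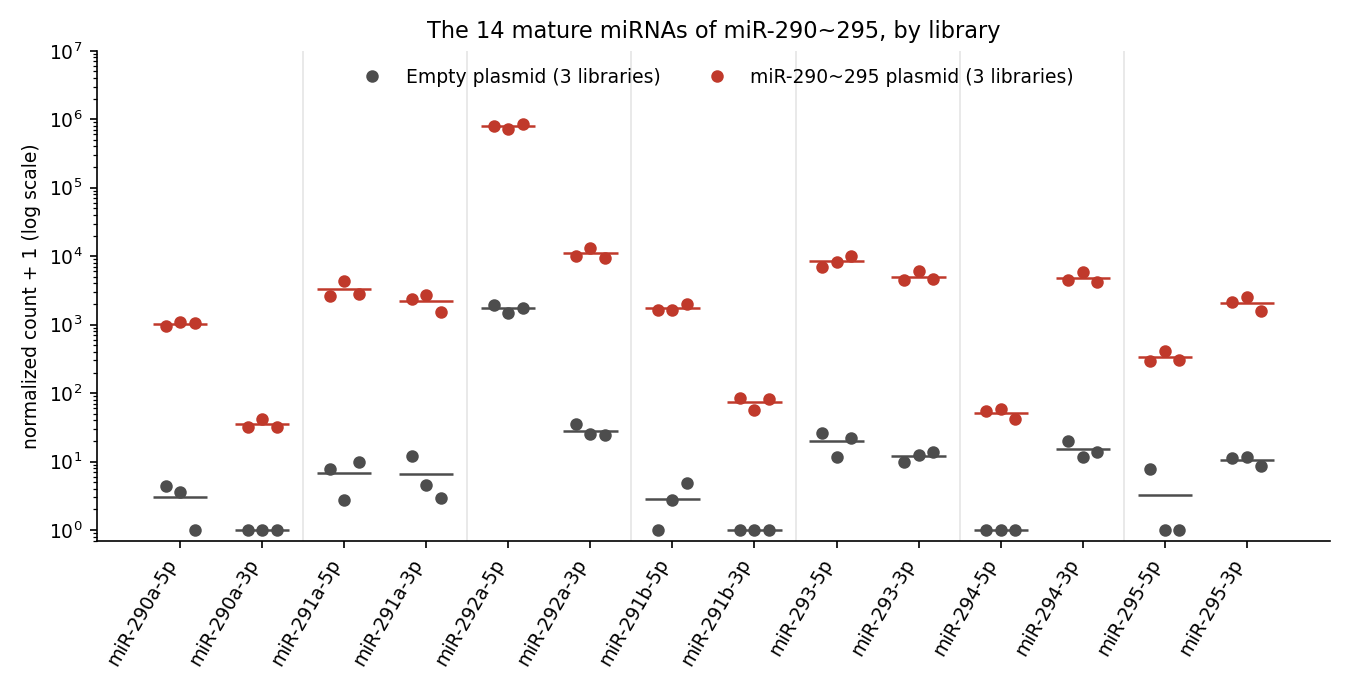
Normalized count + 1 on a log axis for the 14 mature products of miR-290~295, ordered by hairpin along the chromosome, with 1 point per library and a line at each group mean. The miR-290 libraries lie far above the Empty libraries for every product, miR-292a-5p stands highest in both groups, and miR-290a-3p, miR-291b-3p and miR-294-5p are at 0 in all 3 Empty libraries.

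Pooled by seed, the cluster added far more CUCAAAC than AAGUGC. miR-290a-5p, miR-292a-5p and miR-293-5p, the miRNAs with the seed CUCAAAC, summed to 1752 normalized counts in Empty and 805585 with miR-290~295, or 1.70% of all counts. The 5 products of the cluster with a sequence above and AAGUGC in bases 1 to 8 summed to 40.5, 24.8 and 22.3 and to 9074, 11189.7 and 7418. miR-292a-3p (27.4 in Empty and 10957 with miR-290~295) had no sequence here and is in none of the AAGUGC sums, which may therefore be too low. All listed miRNAs with a sequence that hold AAGUGC there summed to 38241, 35053 and 45077 in Empty and 54959, 59182 and 49811 with miR-290~295, without overlap, a 1.39-fold difference of the sums. This separation of the AAGUGC counts held in the main table only, and on the spike-in scale the groups overlapped. Most of these counts belonged to miR-93-5p, with 34659.6 ± 5012 in Empty and 39166 ± 3319.9 with miR-290~295 (SD, n = 3), which did not pass the test (log2 difference 0.18 ± 0.14, adjusted p = 0.353; −0.30 on the spike-in scale). miR-106b-5p also missed it (log2 difference 0.32, adjusted p = 0.125; −0.16 on the spike-in scale). miR-350-5p, from an intron of Cep170, rose from 1984, 1794 and 1735 to 2596, 2518 and 2795 (log2 difference 0.52, adjusted p = 0.0169), but not on the spike-in scale (adjusted p = 0.894), nor without E2, E3 or miR-290 library 1 or 3 (adjusted p = 0.0723, 0.0533, 0.0549 and 0.0715).

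Reads counted under members of the deleted miR-17~92 cluster and under its relatives were read next. The cluster lies in an exon of Mir17hg on chromosome 14. The mature sequences below, from RefSeq (GRCm38.p6, seed in capitals), show which of them share a seed across loci.
miR-17-5p: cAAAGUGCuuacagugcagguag
miR-20a-5p: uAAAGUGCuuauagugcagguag
miR-93-5p: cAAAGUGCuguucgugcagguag
miR-106b-5p: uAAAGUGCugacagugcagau
miR-92a-3p: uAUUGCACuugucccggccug
miR-25-3p: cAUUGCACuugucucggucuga
miR-92b-3p: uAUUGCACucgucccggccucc
miR-17-5p had 29.2, 40.7 and 23.3 normalized counts in Empty and 2.12, 7.22 and 3.49 with miR-290~295 (log2 difference −2.69 ± 0.45, adjusted p = 0.00195). miR-20a-5p had 74 reads over the 3 Empty libraries and 2 over the 3 miR-290 libraries, a scaled ratio of 37.1 (95% counting interval 9.92 to 312), and passed the test as lower (adjusted p = 2.9e-04). miR-92a-3p went from 909, 632 and 593 to 161, 119.6 and 161 (log2 difference −2.25 ± 0.22, adjusted p = 9.3e-05). All 3 kept members of miR-17~92 were thus lower with miR-290~295, with no overlap between groups, although the cluster is deleted in both. Means below the minimum left out miR-19b-3p, miR-19a-3p and miR-18a-3p. Both Empty and miR-290 libraries thus hold some reads counted under these names. In E1, E2 and E3, miR-92a-3p had 808, 714 and 611 of the 864, 795 and 668 such reads. Counts by mature miRNA do not give the locus a read came from, and the source of these reads was not tested.

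The intact relative miR-106b~25, within the gene Mcm7, gave 0 calls among its 6 kept members with limma, which called 38.9% of all 840. It also gave 0 with edgeR, with DESeq2 and at an unadjusted p under 0.05. Its median log2 difference was 0.06, and −0.43 on the spike-in scale, with 2 falls there. miR-25-3p, which shares its seed with miR-92a-3p and was chosen for that after its values were seen, had 476118, 407237 and 352488 and 451016, 307457 and 402499 (log2 difference −0.10, adjusted p = 0.691). miR-92b-3p, the third carrier of that seed, from its own intergenic locus on chromosome 3, rose from 7186, 4719.6 and 4302 to 18352, 16266 and 21028 (log2 difference 1.81 ± 0.21, adjusted p = 2.1e-04). The sum over the 4 miRNAs with the seed AUUGCAC was 419446 in Empty and 407572 with miR-290~295, with overlapping groups.

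Of the 840 miRNAs, 327 (38.9%) passed the test at an adjusted p under 0.05, 140 higher (16.7%) and 187 lower (22.3%). Among them, 76 rose and 107 fell by at least 1 on the log2 scale. The groups did not overlap for 198 miRNAs that were higher (23.6%) and 219 that were lower (26.1%). With every library's median set equal, 107 were higher and 211 lower, and on the spike-in scale 56 were higher and 328 lower. Without E2, miR-290 library 1 or miR-290 library 3 the number of higher calls fell to 90, 89 and 85.

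**Figure D2:**
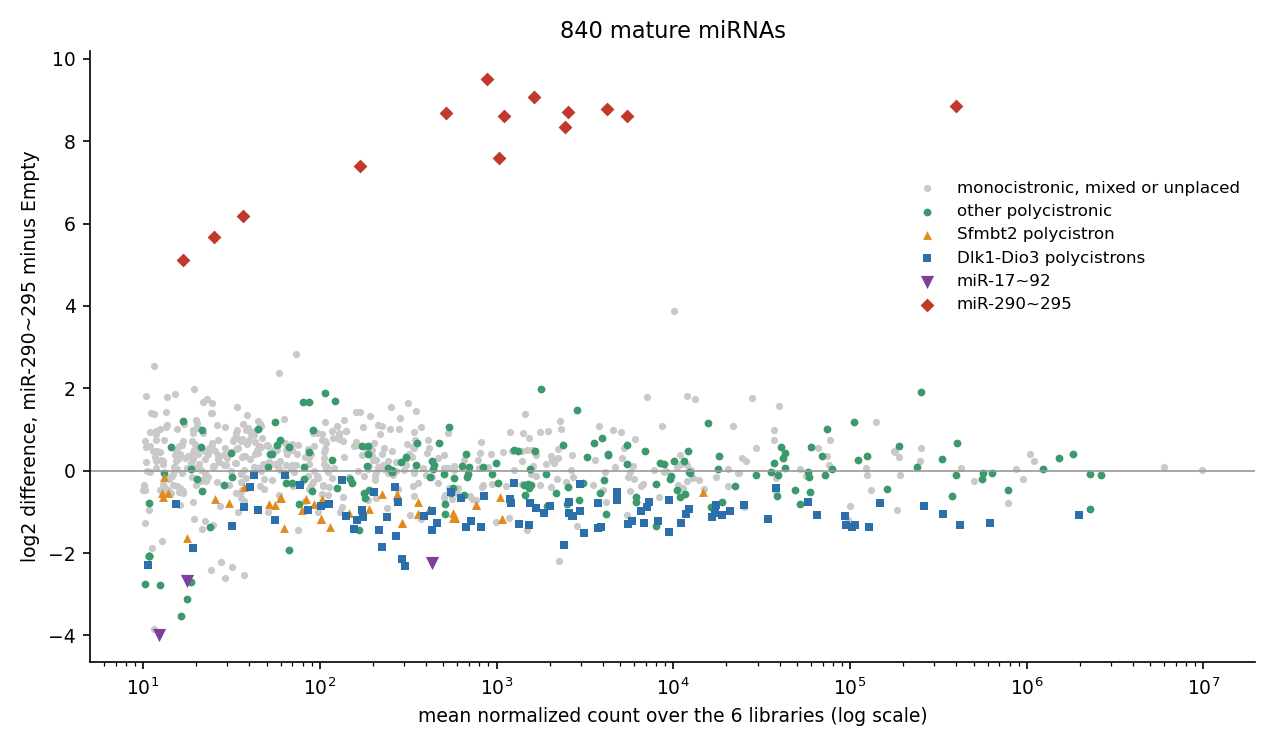
Log2 difference (miR-290~295 minus Empty, main table) against the mean normalized count over the 6 libraries on a log axis, 1 point per kept miRNA, marked by locus. The 14 products of miR-290~295 stand above all others, the 3 kept miR-17~92 members lie below 0, and the miRNAs of the Dlk1-Dio3 and Sfmbt2 polycistrons lie below 0 at every level, on the spike-in scale as well.

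The largest rise outside the 2 clusters was that of miR-6540-5p, a miRNA from an intron of Gap43 (chr16:42303362-42303469, - strand, GRCm38). It had 1792, 1295 and 871 normalized counts in Empty and 18229, 15677 and 22342 with miR-290~295 (log2 difference 3.87 ± 0.25, adjusted p = 6.1e-06), so every miR-290 library was several times above every Empty library. miR-222-3p, from the X-linked miR-221 and miR-222 pair that lowers the cell cycle inhibitor p27 in growing cells, rose from 165710.1, 107660.2 and 62387 to 408017, 324591 and 448918 (log2 difference 1.91 ± 0.31, adjusted p = 0.00144). In the same pair, miR-222-5p (1.47), miR-221-3p (1.18) and miR-221-5p (1.17) rose too, each without overlap. miR-222-3p was the most abundant of the 12 miRNAs with the largest rises.

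miR-130b and miR-301b, neighbours in an intron of 2610318N02Rik on chromosome 16, rose together. miR-130b-5p had 1152, 706 and 382 in Empty and 3239, 1749.8 and 3435 with miR-290~295 (log2 difference 1.99, adjusted p = 0.00377), with E1 and miR-290 library 2 nearest to each other. miR-130b-3p rose by 1.67 and miR-301b-5p by 1.68 on the log2 scale. The miR-449 hairpins in an intron of Cdc20b, a locus best known from multiciliated cells, rose from low levels: miR-449c-5p from 34.9, 53.1 and 46.6 to 195, 146 and 163 (log2 difference 1.89, adjusted p = 4.0e-04) and miR-449a-5p from 37.1, 49.6 and 28.1 to 96.5, 159.8 and 112 (log2 difference 1.66, adjusted p = 0.0023). The third, miR-449a-3p, was at log2 difference 1.18, adjusted p = 0.0108 and was no longer called on the spike-in scale (adjusted p = 0.101).

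Monocistronic rises came from Hox and other loci. miR-196a, encoded in the Hox clusters and directed against Hox mRNAs, rose in both arms: miR-196a-5p had 14907, 12523 and 10953 in Empty and 45836, 40711 and 42351 with miR-290~295 (log2 difference 1.76, adjusted p = 4.1e-05), and miR-196a-1-3p rose by 1.78. Both arms of miR-92b rose as well, miR-92b-5p by 1.75. miR-218-5p, made from introns of the Slit genes, went from 18212, 20353 and 20935 to 62551, 62481 and 52267 (log2 difference 1.57, adjusted p = 4.1e-05), without overlap. miR-1934-5p (1.65) and miR-672-5p (1.55) complete the 12. All 12 rises also passed the test on the spike-in scale, at log2 differences from 1.06 to 3.39.

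Of the 12 largest falls, 10 came from the imprinted Dlk1-Dio3 region of chromosome 12. miR-539-5p had 565, 382 and 575 normalized counts in Empty and 131, 95.9 and 80.2 with miR-290~295 (log2 difference −2.30 ± 0.25, adjusted p = 1.6e-04). Both arms of miR-154 fell, the 3p arm from 453, 407 and 552 to 106, 143 and 77.6 (log2 difference −2.13, adjusted p = 2.7e-04) and the 5p arm by 1.85 on the log2 scale. miR-376b-3p went from 3079, 3711 and 4476 to 1126, 1161 and 912 (log2 difference −1.81, adjusted p = 9.7e-05), and its 5p arm fell by 1.43. The others of the region were miR-337-3p (−1.59), miR-329-3p (−1.51), miR-329-5p (−1.49), miR-496a-3p (−1.45) and miR-300-5p (−1.41).

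The remaining 2 were monocistronic. miR-146a-5p, induced by NF-kappaB and known to dampen its signalling, had 3168, 3719 and 4152 in Empty and 628, 973 and 845 with miR-290~295 (log2 difference −2.19 ± 0.20, adjusted p = 6.3e-05). miR-455-3p, from an intron of the collagen gene Col27a1, had 2195, 2012 and 2345 and 779, 855 and 776 (log2 difference −1.44 ± 0.15, adjusted p = 9.7e-05). In both, the groups were several SD apart. On the spike-in scale all 12 falls were called and ran from −2.78 to −1.89.

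**Figure D3:**
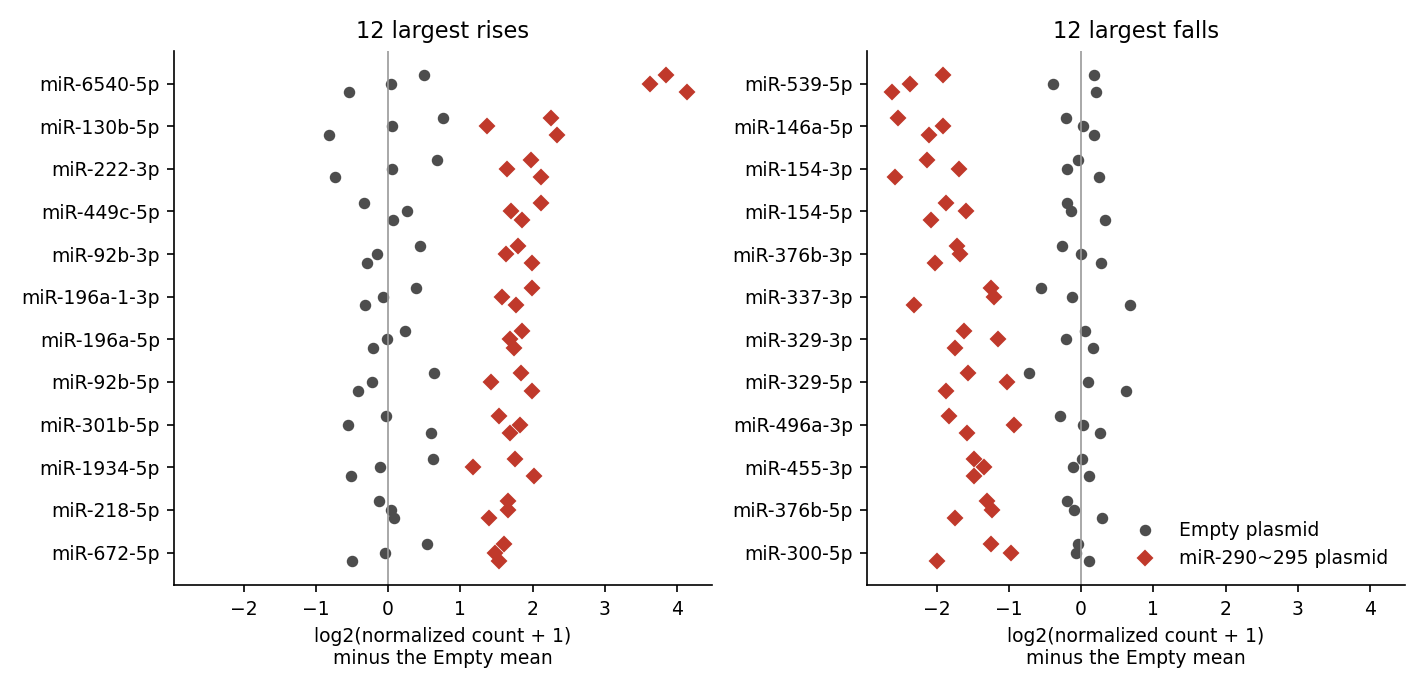
Log2(normalized count + 1) of each library minus the mean of the 3 Empty libraries, for the 12 largest rises (left) and the 12 largest falls (right) with a mean of at least 100, outside miR-290~295 and miR-17~92. Circles are Empty libraries and diamonds miR-290 libraries. The groups do not overlap in any of the 24, which the choice of these miRNAs required, and miR-6540-5p stands apart among the rises.

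The 5 most abundant miRNAs of the Empty libraries were miR-21a-5p, let-7i-5p, miR-143-3p, let-7c-5p and miR-541-5p. miR-143-3p, the smooth muscle and mesenchymal miRNA, went from 2459238, 3088323 and 3432907 to 1426173, 1627319 and 1660389 (log2 difference −0.92, adjusted p = 0.00152). miR-541-5p, of the Dlk1-Dio3 region, went from 2565397, 2757951 and 2676152 to 1224773, 1316195 and 1247902 (log2 difference −1.08, adjusted p = 9.7e-05). Both fell without overlap. miR-21a-5p had 9723222 ± 1444552 in Empty and 9851892 ± 512003 with miR-290~295 (0.03; −0.46 on the spike-in scale), and neither it nor let-7i-5p (0.10; −0.39 on the spike-in scale) nor let-7c-5p (−0.11) passed the test in the main table.

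Polycistronic miRNAs were lower than monocistronic ones relative to Empty. A miRNA was called polycistronic where another annotated hairpin lies within 10 kb on the same strand, and miR-290~295 and miR-17~92 were left out of both classes. Of 314 polycistronic miRNAs, 28 rose and 139 fell, with a median log2 difference of −0.54. Of 489 monocistronic miRNAs, 95 rose and 41 fell, with a median of 0.23 (−0.24 on the spike-in scale, where the polycistronic median was −1.02). In single libraries, the median log2 level of polycistronic miRNAs exceeded the monocistronic one by 3.30 to 3.54 in Empty and by 2.65 to 2.82 with miR-290~295, without overlap.

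Much of this difference came from 2 imprinted loci. The 139 polycistronic miRNAs of the Dlk1-Dio3 region and of the Sfmbt2 gene gave 0 rises and 109 falls (median −1.02), and every one of them had a difference below 0. The other 175 polycistronic miRNAs gave 28 rises and 30 falls (median −0.03). Falls made up 17.1% of these 175, against 8.38% of monocistronic miRNAs. Their share of rises was below the 19.4% of monocistronic miRNAs. The 22.3% of falls among all 840, given beside other lists, includes the 109 falls of the 2 imprinted loci. The difference of the class medians, polycistronic minus monocistronic, was −0.77 over all and −0.26 without these loci. Monocistronic miRNAs numbered 1000 or above, mostly late entries of the miRNA registry, had a higher median (0.31, 55 rises and 12 falls of 291) than those numbered below 1000 (0.08, 40 and 29 of 198). On the spike-in scale these medians were −0.16 (15 rises and 35 falls) and −0.41 (15 rises and 75 falls). Those numbered below 1000 had 14.6% falls and 20.2% rises in the main table. In median and share of falls, though not of rises, the 175 polycistronic miRNAs lay closer to them than to all monocistronic miRNAs.

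The Dlk1-Dio3 region holds a large set of miRNAs that are made from the maternal chromosome only, as products of long noncoding transcripts. Of its 103 listed members 96 were kept, and 80 of them fell and 0 rose (median −1.06, range −2.30 to −0.11), against 22.3% falls among all 840 miRNAs. At an unadjusted p under 0.05, 85 were lower and 0 higher, and edgeR and DESeq2 each called 81 lower and 0 higher. Their sum made up 12.8 to 13.02% of all counts in the Empty libraries and 6.08 to 6.55% in the miR-290 libraries. miR-127-3p, the partner of the retrotransposon-derived gene Rtl1 to which it is antisense, had 836531, 890923 and 901139 and 335502, 390653 and 369712 (log2 difference −1.26 ± 0.12, adjusted p = 6.9e-05). miR-379-5p, the first hairpin of the largest cluster, had 549382, 641290 and 593675 and 216334, 240761 and 258108 (log2 difference −1.32, adjusted p = 7.7e-05). miR-134-5p, known from dendritic spines of neurons, had 183125, 185538 and 187282 and 63839, 75515 and 77363 (log2 difference −1.36, adjusted p = 6.3e-05). For each of the 3, the lowest Empty library was well above the highest miR-290 library.

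Falls ran along the whole region. In the hairpins from Mir770 to Mir136 (chr12:109563692-109595388) 19 of 24 kept miRNAs fell (median −1.03). From Mir341 to Mir370, within Rian, 4 of 6 fell (median −0.81), among them miR-370-3p, which went from 168757, 142987 and 132655 to 53537, 58573 and 58362. From Mir379 to Mir3072 (chr12:109709060-109747960) 56 of 65 fell (median −1.08), among them miR-382-5p, which went from 151792, 147785 and 158785 to 58373, 56199 and 69345. Differences between these 3 stretches were not tested.

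The second locus is an intron of Sfmbt2 on chromosome 2, which in rodents holds many near-identical copies of miR-297, miR-466, miR-467 and miR-669. Of its 44 kept miRNAs 30 fell (68.2%) and 0 rose (median −0.88), against 22.3% falls among all 840. At an unadjusted p under 0.05, 35 were lower and 0 higher. edgeR called 31 and DESeq2 32 of them lower, and 0 higher. miR-467e-5p had 778, 723 and 774 in Empty and 401, 375 and 346 with miR-290~295 (log2 difference −1.02, adjusted p = 0.00116), miR-669p-5p had 1311, 1276 and 1875 and 665, 758 and 530.1 (log2 difference −1.18, adjusted p = 0.0023), and miR-669d-5p had 155, 179 and 161 and 65.7, 74.2 and 51.4 (log2 difference −1.37, adjusted p = 0.00144). Some entries, miR-669p-5p among them, had the same mean count and log2 difference as another entry. Single members are therefore uncertain and share their reads, and some of the 30 falls rest on the same reads. Of the 7 kept members of these families with loci outside Sfmbt2, 3 fell and 0 rose (median −0.72).

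Of 36 polycistrons with at least 3 kept miRNAs, 16 had only falls among their calls, 11 only rises, 9 no call and 0 both. Outside the Dlk1-Dio3 and Sfmbt2 loci the numbers were 12, 11, 9 and 0 of 32. In 11 of the 27 polycistrons with a call there was only 1 call, which cannot go both ways, and of the 16 with more, 9 had only falls and 7 only rises. No polycistron held both directions with edgeR or on the spike-in scale, but Mir23b to Mir24-1 did with DESeq2 (1 rise and 1 fall) and at an unadjusted p under 0.05 (2 rises and 1 fall). The strongest falls were in the X-linked rodent cluster from Mir743 to Mir465 (median −2.72, 5 falls of 8), at low counts: miR-881-3p had 21.4, 36.3 and 39.8 in Empty and 3.18, 1.03 and 5.23 with miR-290~295, miR-871-3p had 14.6, 24.8 and 16.5 and 2.12, 1.03 and 2.62, and miR-465b-5p had 24.7, 40.7 and 26.2 and 4.24, 0 and 2.62. The miR-465 copies are near-identical and share reads. In the pair of miR-193b and miR-365-1, miR-193b-3p fell from 68.6, 86.8 and 169 to 21.2, 27.8 and 28.8 (log2 difference −1.92, adjusted p = 0.00249) and miR-365-1-5p by 1.05 on the log2 scale.

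The miR-143 and miR-145a pair, markers of smooth muscle and mesenchymal cells, fell in 4 of 4 products (median −0.99). Beside miR-143-3p, miR-145a-5p had 10107, 9230.1 and 15105 and 3920.3, 5916 and 3692 (log2 difference −1.35, adjusted p = 0.0023), and miR-145a-3p had 23363, 25603 and 22734 and 13486, 14081 and 14548 (log2 difference −0.77, adjusted p = 0.00144). The X-linked cluster from miR-322 to miR-503, which holds mouse relatives of miR-15 and miR-16 that restrain the cell cycle, gave 6 falls and 0 rises of 11 (median −0.55), 54.5% falls against 22.3% among all 840. There miR-322-3p had 60690.4, 69678 and 67978 and 31148, 43892 and 39128 (log2 difference −0.81, adjusted p = 0.00307), and miR-503-3p (−0.82) and miR-351-3p (−0.71) fell as well.

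Rises among polycistrons were led by miR-130b and miR-301b (median 1.67, 3 of 4), miR-449 (1.66, 3 of 3) and miR-221 and miR-222 (1.32, 4 of 4). miR-497 and miR-195a followed at 0.68, with miR-195a-3p at 3331, 2999.7 and 2409 in Empty and 4940.2, 5058 and 5077 with miR-290~295 (log2 difference 0.80, adjusted p = 0.00361) and miR-195a-5p at log2 difference 0.68, adjusted p = 0.00947. On the spike-in scale neither arm of miR-195a was called (adjusted p = 0.237 and 0.489). In the cluster of miR-500 to miR-532, miR-500-5p fell (log2 difference −1.37, adjusted p = 0.00887) and the other 8 kept members gave no call.

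**Figure D4:**
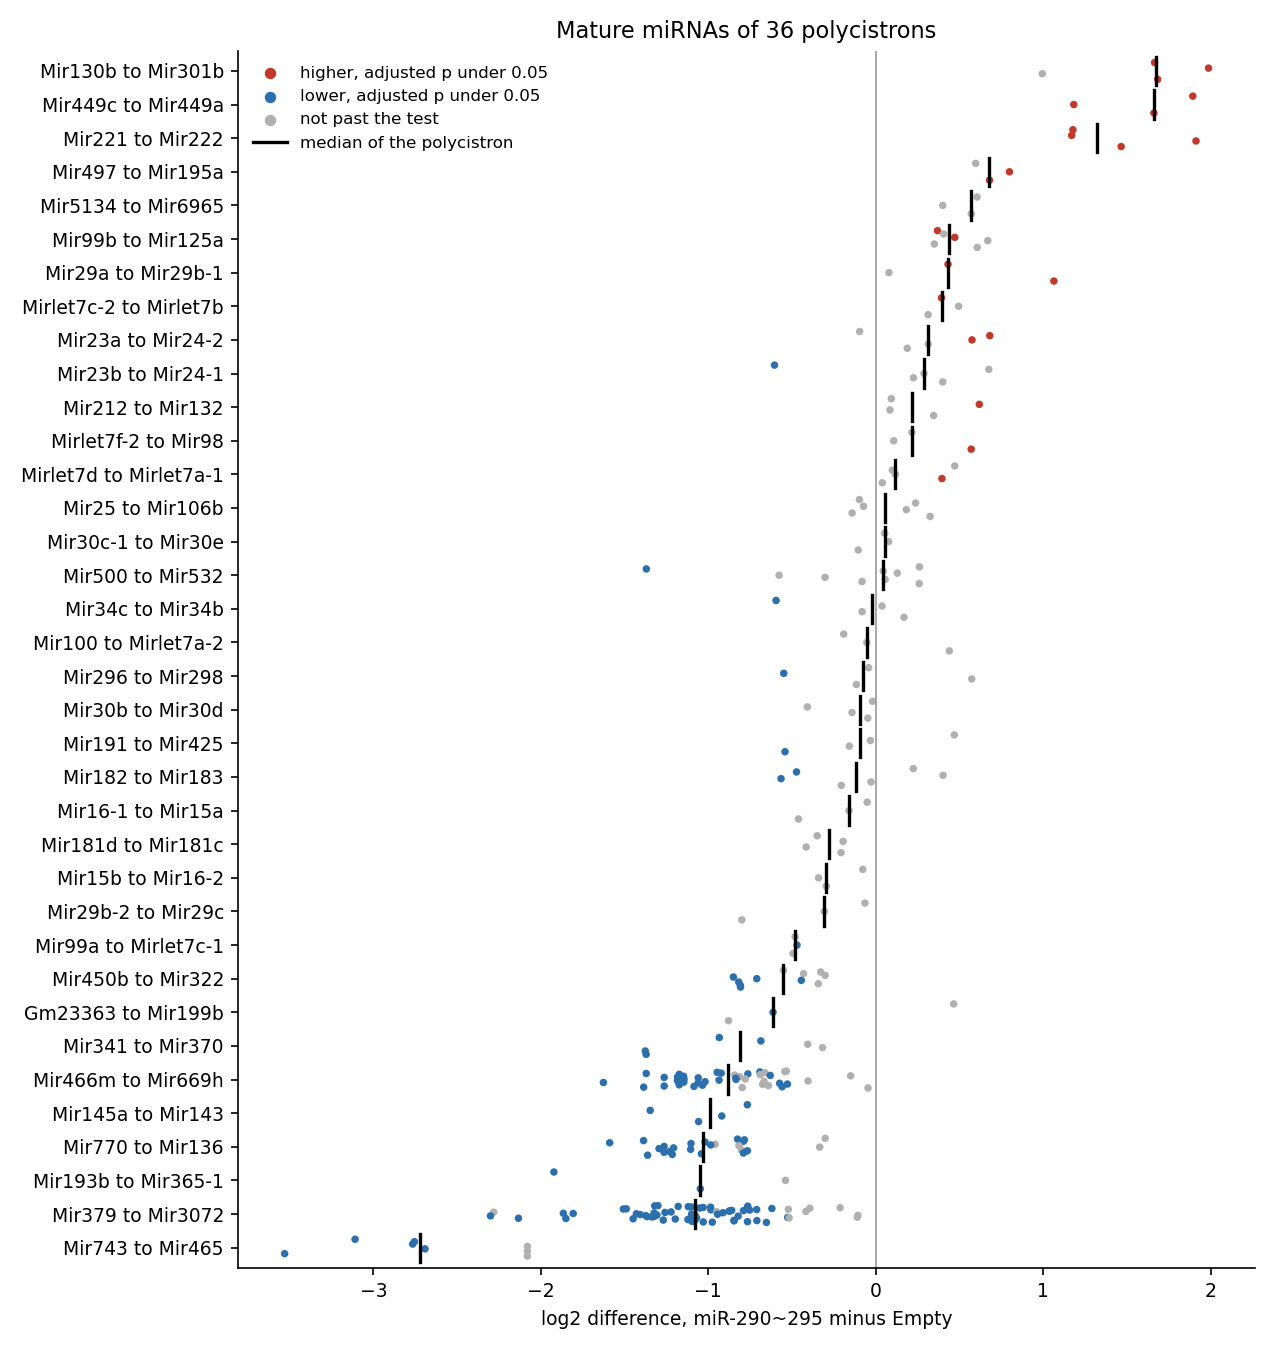
Log2 difference (miR-290~295 minus Empty, main table) of every kept miRNA in the 36 polycistrons with at least 3 of them, 1 row per polycistron named by its outermost hairpins, with a black bar at its median. Red points rose and blue points fell at an adjusted p under 0.05, and no row holds both colours; 11 of the 27 rows with a coloured point have only 1. On the spike-in scale the values lie lower, and 10 in place of 28 polycistronic miRNAs pass as rises.

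Both arms of a hairpin come from 1 precursor, so they offer a second reading of each locus, though from the same libraries. In 225 hairpins both arms were kept, miR-290~295 and miR-17~92 left aside. The arms had the same sign in 184. Both arms were called in 67 hairpins, in 17 both as higher, in 50 both as lower and in 0 in opposite directions. Some hairpins at Sfmbt2 and of miR-465 had an arm with the same mean count and log2 difference as another hairpin. The 225 hairpins, and the 50 with both arms lower, may thus count some reads more than once. The correlation of the log2 differences of the 2 arms was r = 0.833 (Spearman 0.827) across the 225 hairpins, which share libraries and are not independent replicates. Without the Dlk1-Dio3 and Sfmbt2 loci it was 0.777 across 165 hairpins, with 17 pairs both higher and 11 both lower.

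**Figure D5:**
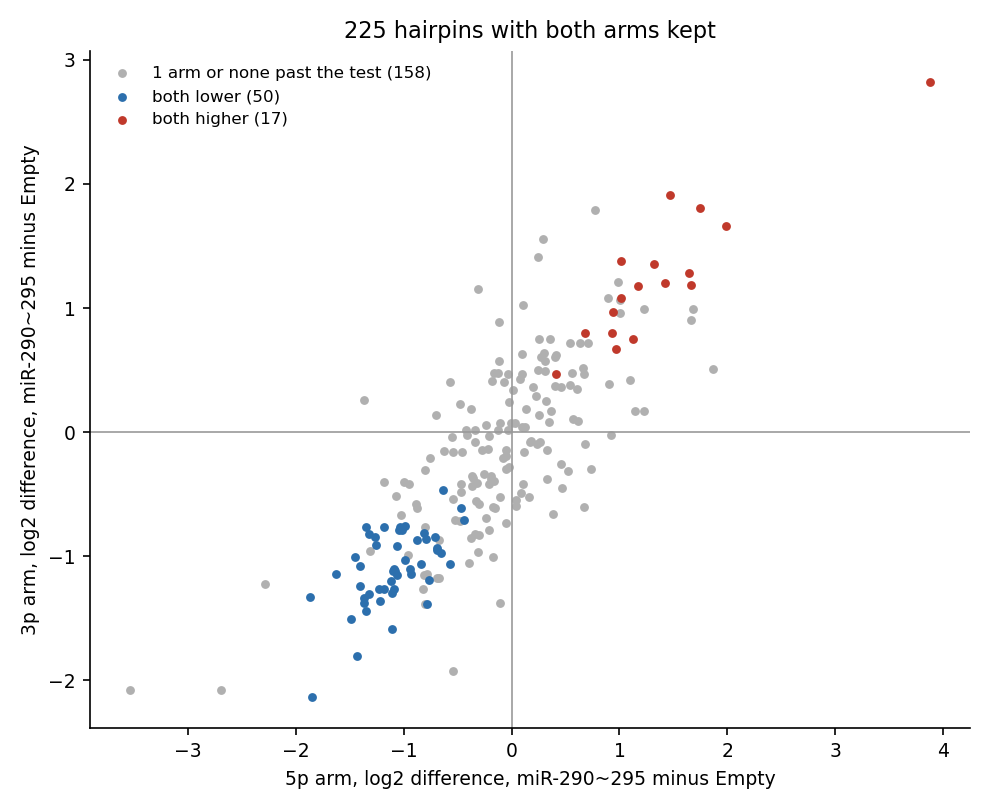
Log2 difference (miR-290~295 minus Empty, main table) of the 3p arm against that of the 5p arm for 225 hairpins outside miR-290~295 and miR-17~92. Blue points are the 50 hairpins with both arms called lower and red points the 17 with both called higher, and miR-6540 is the point at the far upper right.

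Families known from growth control gave few calls, and on the spike-in scale none of their rises was called. The let-7 family, which restrains growth and promotes differentiation, gave 4 rises and 0 falls of 23 (median 0.22; on the spike-in scale −0.27, with 0 rises and 4 falls). miR-98-5p, its X-linked member, rose from 34374, 35689 and 28725 to 47813, 45974 and 52506 (log2 difference 0.57, adjusted p = 0.00939). The other 3, let-7e-3p (0.47) and the near-identical let-7a-1-3p (0.40) and let-7c-2-3p (0.39), lay below 0 on the spike-in scale, and were called only with all libraries or without E1 (adjusted p = 0.0534 to 0.0967 for let-7e-3p and 0.0923 to 0.158 for let-7a-1-3p without another library). The miR-30 family gave 1 rise of 11, miR-30c-5p (log2 difference 0.56, adjusted p = 0.00989), with a median of −0.04 (on the spike-in scale −0.53, with 0 rises and 8 falls). The miR-15 and miR-16 family gave 2 rises of 10, both arms of miR-195a, and a median of −0.12 (on the spike-in scale −0.59, with 0 rises and 6 falls).

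The miR-29 family, directed against collagen mRNAs, gave 2 rises of 7 (median −0.06; on the spike-in scale −0.51, with 0 rises and 2 falls). miR-29b-1-5p had 403, 377 and 269.7 in Empty and 795, 666 and 711 with miR-290~295 (log2 difference 1.06, adjusted p = 0.00275). The other rise, miR-29a-3p (0.43; −0.05 on the spike-in scale; adjusted p = 0.0346), was lost without E2 or miR-290 library 1 or 2 (adjusted p = 0.0811 to 0.116). The shares of rises in these 4 families ran from 9.09 to 28.6%, against 16.7% among all miRNAs.

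The miR-23, miR-24 and miR-27 clusters gave 3 rises and 1 fall of 11 (median 0.31; on the spike-in scale −0.17, with 0 rises and 2 falls). Thus 27.3% were rises and 9.09% falls, against 16.7% and 22.3% among all 840. miR-27a-3p rose from 54548, 47677 and 42536 to 81763, 65425 and 68403 (log2 difference 0.58, adjusted p = 0.013), but not without E2 or miR-290 library 1 (adjusted p = 0.0527 and 0.0597). miR-23b-3p fell from 49217, 46853 and 42604 to 27688, 38457 and 26254 (log2 difference −0.60, adjusted p = 0.0184), but not without E2, miR-290 library 1 or miR-290 library 3 (adjusted p = 0.0651, 0.0782 and 0.0822). miR-23a-5p (0.68) and miR-24-3p (0.35; −0.13 on the spike-in scale), the other rises, were lost without E2 or any miR-290 library, miR-24-3p, named after its values were seen, also without E3 (adjusted p = 0.0541 to 0.0889 and 0.0604 to 0.146).

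The list of miRNAs repressed by MYC gave 10 rises and 3 falls of 63 (median 0.05; on the spike-in scale −0.43, with 0 rises and 26 falls), and the falls were miR-146a-5p, miR-34a-5p and miR-23b-3p. Of the list 15.9% were rises and 4.76% falls, against 16.7% and 22.3% among all 840. The p53-responsive list gave 0 rises and 2 falls of 9 (median −0.08; 0 rises also with edgeR, with DESeq2 and at an unadjusted p under 0.05). Its share of falls, 22.2%, lay beside 22.3% among all 840, which include the falls of the Dlk1-Dio3 and Sfmbt2 loci. miR-34a-5p, its best known member, went from 262, 283 and 393 to 167, 203 and 131 (log2 difference −0.90, adjusted p = 0.0156), a call lost without miR-290 library 1 or 3 (adjusted p = 0.0503 and 0.0704). miR-34c-3p was at −0.60 (adjusted p = 0.0486) and kept its call only without miR-290 library 2 (adjusted p = 0.0621 to 0.17 without another library).

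miRNAs made without the Microprocessor, such as mirtrons released by splicing, gave 3 rises and 0 falls of 7 (median 0.94; on the spike-in scale 0.46, with 0 rises and 1 fall). Their 3 rises made up 42.9%, against 16.7% among all 840, where 22.3% fell. miR-877-3p, a mirtron of Abcf1, had 91.1, 87.7 and 104 in Empty and 217, 163 and 179.6 with miR-290~295 (log2 difference 0.97, adjusted p = 0.00514; 0.49 and adjusted p = 0.13 on the spike-in scale), without overlap. miR-702-3p (0.96) and miR-877-5p (0.94) were lost without miR-290 library 1 (adjusted p = 0.0503 for miR-702-3p), and miR-877-5p also without E2, E3 or miR-290 library 3 (adjusted p = 0.0512 to 0.0905).

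Cell type lists were read to see what else moved with the plasmid. The 22 entries of the fibroblast and mesenchymal list summed to 12447018 to 16454769.5 normalized counts in Empty and 13005386 to 14214974 with miR-290~295, and gave 3 rises and 11 falls of 21 kept (median −0.46; on the spike-in scale −0.95, with 1 rise and 14 falls). In this list 14.3% were rises and 52.4% falls, against 16.7% and 22.3% among all 840. Of the falls, miR-199a-3p, miR-199b-3p and miR-199a-5p were called only with all libraries or without E1 (adjusted p = 0.0524 to 0.132 without another library). miR-214-3p lost its call without E2 or miR-290 library 1. miR-199a-3p and miR-199b-3p (−0.61 each) averaged 379029 and 378523 over the 6 libraries and may count the same reads. The miR-199 entries and miR-214-3p were named after their values were seen. miR-152-3p fell from 106812, 144014 and 157881 to 51687, 67534 and 58886 (log2 difference −1.19, adjusted p = 9.2e-04), while miR-31-5p rose from 12922, 13356 and 15265 to 26168, 34622 and 28410.1 (log2 difference 1.10, adjusted p = 5.9e-04). miR-21a-5p, abundant in fibroblasts, had the highest count of all miRNAs in Empty. The other rises, miR-10a-5p (0.42) and miR-10a-3p (0.47), were named after their values were seen and were just below 0 on the spike-in scale, and their calls were lost without E2 or miR-290 library 1 or 3 (adjusted p = 0.051 to 0.0812 and 0.0804 to 0.13 over the libraries that lose them). The call of miR-10a-3p was also lost without E1 or miR-290 library 2.

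The neural list gave 5 rises and 1 fall of 9 (median 0.38; on the spike-in scale −0.09, with 2 rises and 1 fall), and its sum was 106635 to 120174 in Empty and 220074 to 239527 with miR-290~295. Among the 9, 55.6% were rises and 11.1% falls, again beside 16.7% and 22.3%. Most of the sum was miR-129-5p, at 88077, 86678 and 82735 and 203854, 191419.7 and 192993 (log2 difference 1.19, adjusted p = 7.7e-05). miR-9-3p rose from 14.6, 19.5 and 16.5 to 45.6, 52.6 and 55.8 (log2 difference 1.55, adjusted p = 0.00224), and the brain-defining miR-9-5p ranged from 192 to 388 over the 6 libraries, with overlap. miR-129-1-3p (1.07), miR-129-2-3p (0.93), miR-219a-1-3p (0.38; −0.10 on the spike-in scale) and the fall of miR-128-1-5p (−0.69), all but miR-128-1-5p named after their values were seen, each lost the call without E2 or without miR-290 library 2 or 3 (adjusted p = 0.0991 to 0.152, 0.069 to 0.109, 0.0536 to 0.145 and 0.0719 to 0.119 over the libraries that lose them). miR-129-1-3p and miR-129-2-3p also lost it without E1, and miR-128-1-5p without E3. miR-219a-1-3p lost its call whichever of the 6 libraries was left out.

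Of the blood cell markers, miR-142a-3p was at 0 to 2.66 and miR-451a at 0 to 3.09 normalized counts, miR-150-5p, a marker of mature lymphocytes, at 15.9 to 28.1, and miR-155-5p, which activated immune cells and other cell types express, at 14078 to 20079. The haematopoietic list gave 0 calls of 3 kept with limma, which called 38.9% of all 840. It also gave 0 with edgeR and DESeq2 and 0 at an unadjusted p under 0.05. Its sum, 15513 to 20368 in Empty and 14328 to 18954 with miR-290~295, was nearly all miR-155-5p. Of the epithelial list, whose sum was 243 to 275 and 218 to 257, miR-205-5p fell from 58.5, 47.8 and 54.3 to 10.6, 9.28 and 9.59 (log2 difference −2.33, adjusted p = 2.8e-04). miR-200b-3p rose from 35.99, 31.00 and 21.3 to 46.6, 69.1 and 63.6 (log2 difference 1.01, adjusted p = 0.0238), but not on the spike-in scale (adjusted p = 0.207) nor without E2, E3 or miR-290 library 2 or 3 (adjusted p = 0.0566, 0.0684, 0.0747 and 0.0877).

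The muscle list summed to 62614 to 83555 in Empty and 44535 to 52497 with miR-290~295. It gave 1 fall of 2 kept, where 22.3% of all 840 fell. That was miR-206-3p (−0.51, adjusted p = 0.0238), lost without E2 or miR-290 library 2 or 3 (adjusted p = 0.0535 to 0.0795). miR-133a-3p stayed at 0 to 4.43, and miR-1a-3p had 86.6, 75.3 and 646 in Empty, with E3 far above the other 2, and 89.05, 39.2 and 58.4 with miR-290~295. The endothelial and liver list gave 0 calls of 3 with limma, which called 38.9% of all 840. It gave 0 with edgeR and DESeq2 and 1 at an unadjusted p under 0.05. The miR-302 cluster, also typical of embryonic stem cells, had no entry among those analysed here. What part other cells had in the results was not tested.

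A second polycistron was overexpressed in the other MEF set of the study, where 3 libraries with overexpressed miR-17~92 (OV) can be set beside 3 d/d libraries for which the labels name no plasmid. This contrast sets overexpressed against deleted miR-17~92, so whether OV or d/d moved cannot be told apart. Higher or lower in OV means relative to d/d only. The fl/fl MEF libraries that the labels also list were not read here. The 2 sets share no library and were normalized separately, so their values stand side by side and differences between them were not tested. In that set 313 of 666 kept miRNAs were called (47.0%), 154 higher (23.1%) and 159 lower (23.9%). Of the 90 Dlk1-Dio3 miRNAs kept in both sets, 78 were lower with miR-290~295 (median −1.06) and 90 were lower in OV (median −3.52). Of the 37 at Sfmbt2, 29 were lower with miR-290~295 (median −0.95) and 0 in OV (median −0.19, 1 higher). The miR-322 to miR-503 cluster had 6 falls of 11 with miR-290~295 and, in OV, 2 rises and 0 falls.

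Single miRNAs with calls in both sets were read side by side. miR-6540-5p was at 3.87 with miR-290~295 and at −2.46 in OV, with 525, 575 and 503 normalized counts in d/d and 82.3, 122 and 88.98 in OV. miR-130b-5p (1.99 and −2.86), miR-449c-5p (1.89 and −3.03) and miR-301b-5p (1.68 and −3.62) were likewise called higher with miR-290~295 and lower in OV. miR-146a-5p went the other way, at −2.19 and 1.76. miR-92b-3p (1.81 and 3.15), miR-196a-5p (1.76 and 0.90), miR-218-5p (1.57 and 1.28) and miR-672-5p (1.55 and 1.66) were called higher in both. Of the 106 miRNAs called higher with miR-290~295 and kept in both sets, 28 were higher and 17 lower in OV. Of the 165 called lower, 89 were lower and 10 higher in OV. Of these 89 shared falls, 78 were miRNAs of the Dlk1-Dio3 region, so most of them came from that locus. Among all 651 miRNAs kept in both sets, 158 were lower and 141 higher in OV.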

How the data were processed

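Small RNA from d/d MEF with Empty or miR-290~295 was gel-purified, given spike-ins and sequenced with the NEBNext small RNA kit, per the labels. The deposited tables hold normalized counts, which are signal values: each library's reads divided by a size factor, once without and once with the spike-ins. Beside them, the authors deposited log2 values (regularized log), which were not used, and 18 columns with no match among the samples were left out. DESeq2 is named, with no version, per the submitters' processing notes, and the aligner, counter, annotation and genome build count as not given in the sources used here. Every value was a whole number of reads within 0.0001 of 1 step, so reads and depth could be recovered.

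The 840 of 1265 miRNAs that averaged 10 normalized counts or more were tested as log2(normalized count + 1) with limma 3.58.1 (R 4.3.3; moderated statistics with an intensity trend, 3 libraries against 3, Benjamini-Hochberg adjustment over the 840, called under 0.05). Log2 differences are on that scale, which understates the change of low miRNAs. edgeR 4.0.16 on the recovered reads called 327 and DESeq2 1.42.0 called 348. Of the 1265 listed names, 1064 matched RefSeq's mature table (GRCm38.p6), 184 more were placed by hairpin name, and host genes are from GENCODE M21.

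The text names all miR-290~295 and miR-17~92 members, the 12 largest called rises and the 12 largest called falls with a mean of at least 100 and no overlap, the 5 most abundant miRNAs in Empty, AAGUGC carriers, and members among the 3 smallest p-values of each list or polycistron. Other names are marked as chosen later. The members and lists were chosen with earlier results of these data known. Alternatives were the spike-in table, re-centred medians, TMM (trimmed mean of M-values) scaling, other minimums and pseudocounts, edgeR, DESeq2, a replicate block, merged identical entries, other hairpin distances, and leaving out each library.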

Additional observations from a re-analysis of the deposited data

How the results depend on the processing

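Most results kept their direction and side of the threshold: 72 of the 100 named calls held in all 17 alternatives. The number of calls was 297 with no minimum, 258 with a minimum mean of 100, 320 with TMM scaling, 327 with edgeR and 348 with DESeq2. Leaving out 1 library gave 224 to 380 calls, 85 to 171 higher and 134 to 209 lower. It gave medians of −0.60 to −0.52 for polycistronic and 0.21 to 0.27 for monocistronic miRNAs, differences between them of −0.85 to −0.73, and log2 differences of the cluster's sum of 8.74 to 8.93. The spike-in table gave 56 higher and 328 lower calls, medians of −1.02 and −0.24 for the classes, and 8.36 for the cluster's sum. The monocistronic median was 0.12 with re-centred medians and 0.16 with a minimum mean of 100. The class difference was −0.26 without Dlk1-Dio3 and Sfmbt2. With alternatives chosen after seeing the data it was −0.62 with monocistronic miRNAs numbered under 1000, −0.60 with a minimum mean of 1000 and −0.77 with 1 arm per hairpin. Replicate numbers did not pair the libraries (correlations of deviations 0.28, 0.01 and −0.26), and a replicate block gave 298 calls.

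Signs turned for small differences. miR-21a-5p was −0.0040 with TMM, −0.018 with edgeR, −0.078 re-centred, −0.46 on the spike-in scale, and −0.10 to 0.10 with 1 library left out (−0.10 without E1, −0.014 without miR-290 library 2). let-7i-5p was −0.010 re-centred, −0.39 on the spike-in scale and −0.081 to 0.21 with 1 library left out, below 0 without E1. Leaving out 1 library gave −0.25 to 0.058 for let-7c-5p, above 0 without E1, and −0.22 to 0.059 for miR-25-3p, above 0 without E1 or miR-290 library 2. On the spike-in scale the values were −0.16 for miR-106b-5p, −0.30 for miR-93-5p, −0.011 for let-7e-3p, −0.088 for let-7a-1-3p, −0.091 for let-7c-2-3p, −0.052 for miR-29a-3p, −0.13 for miR-24-3p, −0.068 for miR-10a-5p, −0.011 for miR-10a-3p and −0.10 for miR-219a-1-3p. let-7a-1-3p, let-7c-2-3p, miR-24-3p, miR-10a-3p and miR-219a-1-3p were also not called with TMM, edgeR, re-centred medians, no minimum or the block. The block further lost let-7e-3p, miR-29a-3p, miR-34c-3p and miR-128-1-5p among named calls, and re-centring let-7e-3p, miR-29a-3p, miR-10a-5p and miR-129-1-3p. The cause of these changes was not tested. Depth limits the products at 0 in Empty to the bounds given.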
